A study of Mus musculus with 4 samples.

Results

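Fxyd3, Fxyd4, Fxyd6 and Atp1b1 encode 3 small FXYD proteins and the beta 1 subunit of the sodium-potassium ATPase (Na,K-ATPase), and they are 4 of the 16892 genes in the count matrix of a single-cell RNA-Seq atlas of the mouse epididymis and vas deferens. They were chosen by name, as genes of the pump and its regulators, with earlier results of these data known. All 4 were detected. Cells came from adult male FVB/NJ mice aged 10 to 12 weeks, with no transgene or treatment named. The organ was cut into caput, corpus and cauda epididymis and vas deferens, and 8 pieces of each, from the same 4 mice, were pooled into 1 library per region after sperm had been depleted. With 1 pooled library per region there is no replicate, so no difference below was tested. Intervals in parentheses are 95% intervals that cover counting error only.

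The Na,K-ATPase moves sodium out of the cell and potassium in, at the expense of ATP, and sets the sodium gradient on which other epithelial transport depends. It is built from a catalytic alpha subunit and a beta subunit, which the alpha subunit needs to fold and reach the membrane, and in many tissues a FXYD protein joins the complex and tunes its affinity for sodium or potassium. The epididymal epithelium reabsorbs fluid and salts as sperm pass from the caput to the vas deferens, and acidifies the lumen through clear cells. Fxyd4, also called CHIF, is best known from the kidney collecting duct and the distal colon, and Fxyd3, also called Mat-8, from a range of epithelia.

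The matrix holds 8880 cells and 26639701 unique molecular identifiers (UMIs), with 1433 caput, 2325 corpus, 1616 cauda and 3506 vas deferens cells and a median of 1433 to 2207 UMIs per cell in the 4 libraries. Cell types are those the study deposited, 34 populations grouped here into 7 broad types: 3956 principal, 348 clear, 1412 basal, 2222 stromal, 502 muscle, 245 endothelial and 195 immune cells. With the 4 libraries pooled, in 7 of 7 types the summed level of the type's own marker list was above its level in every other type. By library the principal marker list ranged from 67.7 to 14779 UPM in clear cells and from 6867 to 150013 UPM in principal cells. The populations were built from these same counts, so a level that differs between them is a description. Levels are UMIs per 1000000 UMIs of the cells named (UPM). Because 3′ counting gives 1 UMI per captured molecule whatever the length of the transcript, UPM of different genes can be set side by side, though capture differs between transcripts. Fewer cells with RNA of a gene and less RNA per cell cannot be told apart in a summed level, so shares of cells are given beside it. Of the cell barcodes, 43 occurred in more than 1 library (86 cells). Values given in a row without names run from the caput through corpus and cauda to the vas deferens.

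In RefSeq on GRCm38, the build of the alignment (mm10), Fxyd4 lies on the minus strand at chr6:117933558-117937714, Atp1b1 on the minus strand at chr1:164437099-164458355 and Fxyd6 on the plus strand at chr9:45369470-45396159, with Fxyd2 starting 3549 bases beyond it. Fxyd3, on the minus strand at chr7:31070535-31076697, lies near Fxyd1, Fxyd7 and Fxyd5 on the same strand. Between it and Fxyd1 lies Lgi4, on the opposite strand, which overlaps Fxyd3 by 401 bases, and Atp1b1 overlaps Nme7 by 202 bases. Whether the counting used strand is not given in the sources used here. Lgi4 and Nme7 held 29 and 228 UMIs in all cells, against 10549 for Fxyd3 and 4167 for Atp1b1. Both overlaps lie at the end of the genes where UMIs are counted. These counts therefore cannot show whether UMIs were assigned to the wrong gene of a pair. The 250 bases before the start given in the RefSeq promoter table (GRCm38.p6), chr7:31076698-31076947 and chr6:117937336-117937585, both read on the minus strand, are printed for Fxyd3 and Fxyd4, the members with the most UMIs. The table has 1 start for each member, and for Fxyd4 and Fxyd6 that start lies inside the span of the gene given above, and the whole window falls within the annotated gene. Both strands were searched for the letters TATAAA, known as the TATA box. The search also took in the GC box, spelled GGGCGG. The CCAAT box was searched by the letters in its name. The last was the steroid response element's half-site, spelled AGAACA. Capitals mark the only matches in these windows.
Fxyd3: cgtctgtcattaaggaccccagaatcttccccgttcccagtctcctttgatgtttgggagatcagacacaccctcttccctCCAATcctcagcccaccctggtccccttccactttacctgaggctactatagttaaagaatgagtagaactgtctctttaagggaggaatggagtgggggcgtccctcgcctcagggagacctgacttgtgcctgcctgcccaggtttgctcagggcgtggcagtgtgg
Fxyd4: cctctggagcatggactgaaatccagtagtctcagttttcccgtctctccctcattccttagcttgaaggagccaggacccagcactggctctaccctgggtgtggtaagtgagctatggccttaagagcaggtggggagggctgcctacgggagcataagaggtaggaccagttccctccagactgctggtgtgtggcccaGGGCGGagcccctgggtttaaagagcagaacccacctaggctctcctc
The Fxyd3 window held 1 CCAAT at position -169 and the Fxyd4 window 1 GGGCGG at position -48, counted back from the start. Of 32851 RefSeq promoters of this length, 33.8% held a CCAAT, 32.7% a GC box, 12.4% a TATA box and 16.1% a steroid half-site on either strand. GC content was 55.2% for Fxyd3 and 58.0% for Fxyd4, against 70.4% for Atp1b1 and 50.4% for Fxyd6. The matches describe letters in these windows and nothing more.

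The 4 genes divided the cell types between them. Fxyd4 was the principal cell gene, Fxyd3 was highest in basal cells and next in clear cells, Atp1b1 was highest in clear cells and next in basal cells, and Fxyd6 was largely a stromal and endothelial gene, all with the 4 libraries pooled. Fxyd4 had 14579 UMIs over all cells, Fxyd3 10549, Atp1b1 4167 and Fxyd6 1286.

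**Figure D1:**
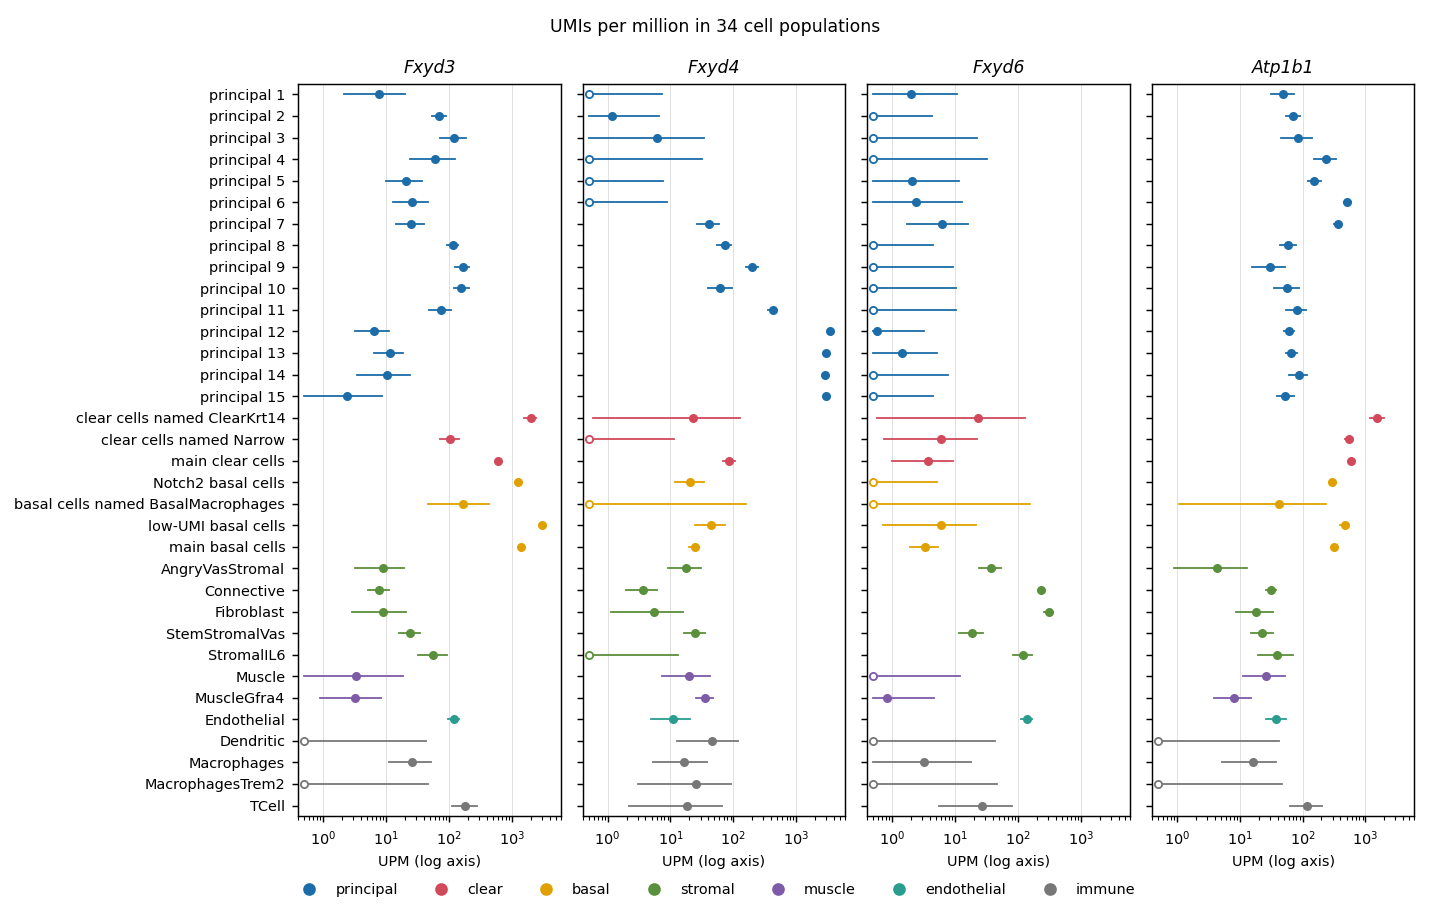
Level of each gene (UPM, log axis) in the 34 deposited populations, coloured by broad cell type. Points are summed levels, lines 95% Poisson intervals, and open points at the left edge stand for 0 UMIs. Fxyd4 reaches 2848 UPM or more in principal populations 12 to 15 and at most 420 UPM in the others, Fxyd3 leads in basal and ClearKrt14 cells, Fxyd6 in stromal and endothelial populations, and Atp1b1 in ClearKrt14 cells. ClearKrt14 cells are shallow, with a median of 698.5 UMIs per cell.

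Fxyd4 was nearly confined to principal cells of the vas deferens. The paper, from these same data, already lists Fxyd4 among the transporter genes enriched in that region. Caput and corpus principal cells held 2 UMIs each (1.16 and 1.41 UPM), cauda ones 159 (91.4 UPM) and the 1360 cells from the vas deferens 14041 (2999 UPM). The vas deferens level stood far above each epididymal one, 32.8-fold (28.1 to 38.6) above the cauda, and the cauda in turn stood 78.8-fold (21.4 to 656) above the caput and 64.8-fold (17.7 to 540) above the corpus. After every cell was thinned to 1000 UMIs, which left out 587 shallower vas deferens and 498 cauda principal cells, 86.0% (83.4 to 88.4) of vas deferens principal cells and 6.70% (4.53 to 9.48) of cauda ones held a Fxyd4 UMI. In the caput 1 of 342 thinned principal cells did. The corpus gave 0 of 346, which at 3 cells of 346 still leaves room for a share of 0.867%, and the exact upper limit was 1.06%. Without thinning the vas deferens share was 69.3% and the cauda share 9.99%. Of thinned stromal cells in the same vas deferens library, 1.22% held a Fxyd4 UMI. Whether stromal cells express the gene was not tested. Unthinned stromal cells were the deeper ones, with a median of 2716.5 UMIs over all libraries against 934.5 in principal cells.

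The 15 principal populations are numbered here from the caput to the vas deferens, an order matched to the study by cell numbers and not certain; the deposited names run otherwise (population 12 is PC02 and population 15 is PC03). Fxyd4 was at 3443 UPM (3356 to 3532) in population 12, 3003 in population 15, 2923 in population 13 and 2848 in population 14, all 4 made almost wholly of vas deferens cells. Population 12 was 1.15-fold (1.09 to 1.20) above population 15, while populations 15, 13 and 14 followed each other within counting error. The level then dropped 6.78-fold (5.73 to 8.07) to 420 UPM in population 11, and fell on to 201 in population 9, 72.4 in population 8, 62.3 in population 10 and 40.4 in population 7. The last value came from 26 UMIs in 5 of 365 cells, and the 346 corpus cells of that population held 2 of them (3.34 UPM). Populations 1 to 6 had 0 or 1 UMI each. Populations 8 to 11 hold cells of both the cauda and the vas deferens, which allows a comparison inside 1 population. In population 11 the level was 62.9 UPM in 141 cauda cells and 1280.4 UPM in 100 vas deferens cells, a 20.4-fold difference (12.1 to 36.6). In population 9 it was 111 UPM in 100 cauda cells and 380 UPM in 26 vas deferens cells, a 3.41-fold difference (2.11 to 5.58). Population 10 had 46.9 UPM in 166 cauda cells and 513 UPM, from 6 UMIs, in 16 vas deferens cells, a 10.9-fold difference (3.50 to 29.4). Population 8 had 68.7 UPM in 486 cauda cells and 300.4 UPM (97.5 to 701) in 8 vas deferens cells, from 5 UMIs. The vas deferens value was the higher one in each of these 4 populations. The part of free RNA of the vas deferens library in those values was not tested.

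Outside principal cells Fxyd4 was low. In the vas deferens it was at 48.1 UPM in basal, 38.8 in muscle, 35.7 in immune, 21.1 in stromal and 15.4 in endothelial cells, which is 0.513% to 1.60% of the level in principal cells of that library. Akr1b7, an aldose reductase family member abundant in vas deferens principal cells, stood at 0.832% to 1.91% of its own principal cell level in the same 5 cell types. In immune cells the shares were 1.19% for Fxyd4 and 1.14% for Akr1b7, and in the other 4 the share of Fxyd4 was the lower one. The 38 vas deferens clear cells were the exception at 554 UPM (441 to 687). Those 83 UMIs lay in 8 cells, 46 of them in 2 cells, and Akr1b7 was also raised there, at 8.23% of its principal level against 18.5% for Fxyd4. The part of principal cell RNA in these values was not tested. In the caput and corpus, by contrast, Fxyd4 was higher in basal cells (14.9 UPM, 21 UMIs, and 12.2 UPM, 30 UMIs) than in the principal cells of the same library, where 2 UMIs were counted in each.

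**Figure D2:**
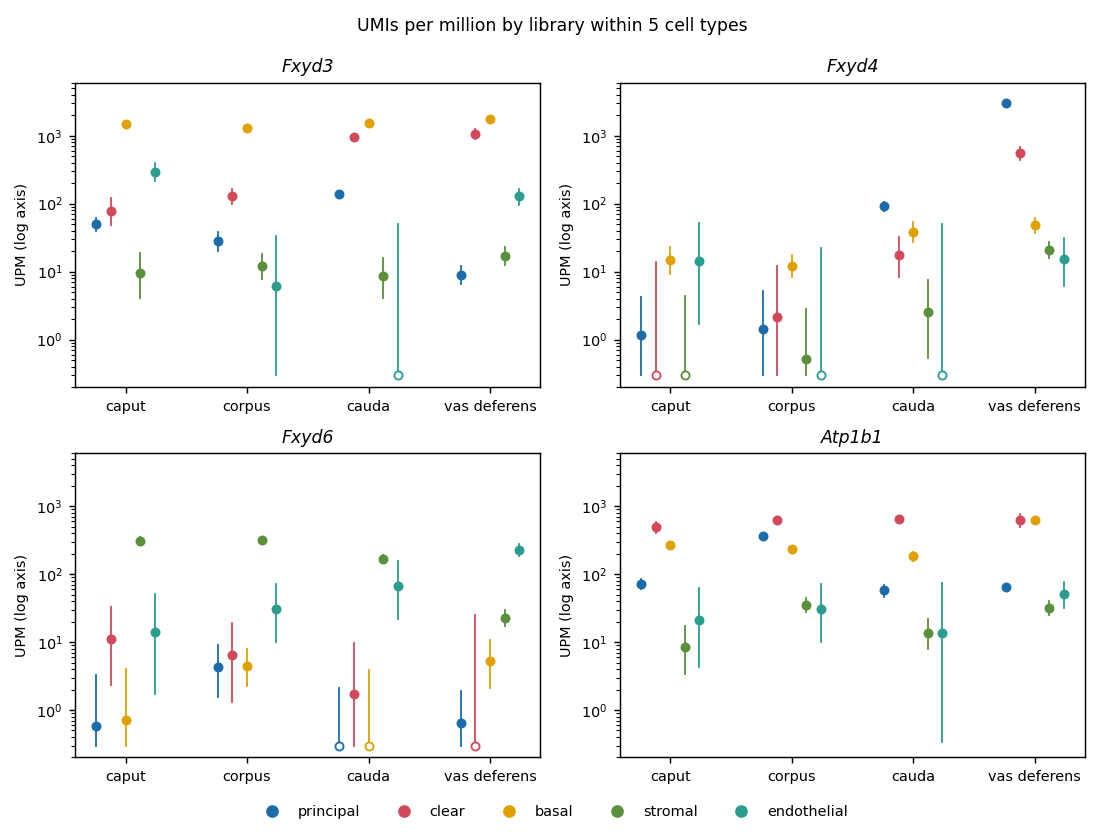
Level of each gene (UPM, log axis) by library within principal, clear, basal, stromal and endothelial cells. Points are summed levels of 1 pooled library, lines 95% Poisson intervals, open points 0 UMIs. Fxyd4 climbs to 2999 UPM in vas deferens principal cells, Fxyd3 differs between the regions in clear cells and hardly in basal cells, Fxyd6 falls in stromal cells and is highest in endothelial cells in the vas deferens, and Atp1b1 peaks in corpus principal cells.

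Of the 7 broad types, basal cells had the highest level of Fxyd3 in every region. Clear cells came next in the cauda (943 UPM) and vas deferens (1068 UPM). The level of Fxyd3 in basal cells was 1505, 1304, 1522 and 1733 UPM along the tract, a spread of 1.33-fold between the lowest and the highest. Of thinned basal cells, 67.8% to 71.8% held a UMI in the 4 libraries. By population, the low-UMI basal cells had 2984 UPM, the main basal cells 1415 and the Notch2 basal cells 1254. The order of these 3 was the same in each library.

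In clear cells Fxyd3 split the tract. Caput clear cells had 79.0 UPM (48.9 to 121) and corpus ones 128 UPM (98.1 to 165), whereas cauda clear cells had 943 UPM (866 to 1025) and those of the vas deferens 1068 UPM (909 to 1247). The caput and corpus values lay within counting error of each other, as did those of the cauda and vas deferens, whereas the cauda stood 7.34-fold (5.61 to 9.75) above the corpus. Without cells called as doublets the corpus was 1.69-fold (1.01 to 2.93) above the caput. Of thinned clear cells, 4.65% (2 of 43), 11.1% (9 of 81), 59.8% (55 of 92) and 40.9% (9 of 22) held a UMI. The makeup of the clear cells differs between regions, since the 78 cells named Narrow came from the caput and corpus only, with 35.6 and 153 UPM there. Narrow is the deposited name. The paper describes a clear cell cluster found only in the caput and corpus and considers it unlikely to be the classical narrow cells. Within the main clear cells alone the levels were 122, 100.1, 914 and 770 UPM. The 54 clear cells named ClearKrt14 had the highest level of any clear population at 1993 UPM, from 277 UPM in 24 corpus cells to 5402 UPM in 13 vas deferens cells. With libraries pooled, the ClearKrt14 level was 1.41-fold (1.13 to 1.74) above that of the main basal cells. The ClearKrt14 cells were also the shallowest clear population, with a median of 698.5 UMIs per cell against 5327.5 in main clear cells. Basal markers (Krt5, Krt14, Trp63 and Itga6, summed) were also higher in cauda and vas deferens clear cells, at 48.9, 32.1, 93.3 and 367 UPM. When clear cells with any UMI of Krt5, Krt14 or Trp63 were left out, a choice made after seeing the data, Fxyd3 was at 84.1, 125, 961 and 698 UPM. The cauda was then 7.70-fold (5.85 to 10.3) above the corpus, and the vas deferens was 0.727 (0.572 to 0.914) of the cauda. Pooled over regions, basal cells were 2.74-fold (2.55 to 2.96) above clear cells, and without the cauda library 5.38-fold (4.73 to 6.14).

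In principal cells Fxyd3 was low, and least so in the cauda. It was highest in the cauda at 137 UPM, followed by the caput (49.9 UPM) and corpus (28.2 UPM), and lowest in the vas deferens at 8.97 UPM. The vas deferens level was 0.0653 of that in the cauda (0.0459 to 0.0909), or 0.123 when levels were averaged over cells. Of thinned principal cells, 14.5% (11.4 to 18.2) held a UMI in the cauda and 1.29% (0.622 to 2.37) in the vas deferens. Inside population 9 there were 250 UPM of Fxyd3 in 100 cauda cells and 0 UMIs in 26 vas deferens cells, but in population 11 the cauda and vas deferens values, 82.6 and 56.5 UPM, did not differ beyond counting error. Summed basal markers in principal cells ranged from 29.9 UPM in the vas deferens to 82.5 UPM in the corpus, and without cells holding a UMI of Krt5, Krt14 or Trp63 the cauda and vas deferens levels were 139 and 5.57 UPM, a ratio of 0.0402 (0.0255 to 0.0608). In the caput the level without those cells was 33.1 UPM. The corpus to caput ratio moved from 0.565 (0.378 to 0.831) to 0.797 (0.505 to 1.25), and the cauda to caput ratio from 2.75 (2.14 to 3.57) to 4.19 (3.08 to 5.79). Of the other cell types, endothelial cells had 121 UPM, carried by few cells: 49 of the 101 UMIs lay in 2 of 245 cells, and basal markers reached 352 UPM there. T cells had 181 UPM from 20 UMIs in 5 of 44 cells.

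By summed level, Fxyd6 was highest in stromal cells in each epididymal library and in endothelial cells in the vas deferens. In stromal cells its level was 307, 314, 169 and 22.7 UPM along the tract, from 257, 618, 198 and 57 UMIs. The caput and corpus values did not differ beyond counting error (1.02-fold, 0.882 to 1.19), the cauda stood below both, and the vas deferens was 0.0724 (0.0542 to 0.0950) of the corpus level. Thinned stromal cells with a UMI made up 23.7%, 23.1%, 14.3% and 2.20%. The glia markers Sox10 and Cdh19 had 0 UMIs in epididymal and 20 UMIs (7.97 UPM) in vas deferens stromal cells, and their part was not tested.

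The stromal populations differ between regions, since StemStromalVas and AngryVasStromal cells came mostly from the vas deferens (517 of 549 and 213 of 226), so the same comparison was made inside single populations. In Connective cells, the largest stromal population, Fxyd6 was at 319, 321, 110 and 18.1 UPM. Fibroblast cells had 483 UPM in the corpus and 347 UPM in the cauda, but 49.0 UPM in vas deferens cells, where 6 UMIs were counted in 39 cells, and the 4 Fibroblast cells of the caput were too few for a level. In both populations the vas deferens value was the lowest of those given, at 0.0563 (0.0279 to 0.102) of the corpus level in Connective and 0.102 (0.0355 to 0.238) in Fibroblast cells. StromalIL6 cells had 115 UPM in 66 caput cells (7 UMIs) and 176 UPM in 182 corpus cells (27 UMIs). They had 0 UMIs in 34 cauda cells and in 37 vas deferens cells, which leaves room for 94.6 and 86.2 UPM at 3 UMIs.

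In endothelial cells the vas deferens was the highest region and not the lowest. Fxyd6 was at 14.1 UPM in 50 caput cells (2 UMIs), 30.4 UPM in 39 corpus cells (5 UMIs), 66.9 UPM in 12 cauda cells (5 UMIs) and 227 UPM (185 to 275) in 144 vas deferens cells (103 UMIs). The vas deferens was 7.45-fold (3.09 to 23.4) above the corpus, while the intervals of the 3 epididymal levels overlapped. The vas deferens level was carried by few cells: UMIs were found in 28 of 144 cells, and 28 of the 103 UMIs lay in 2 cells. Because of this crossing, the pooled levels of 174 UPM in stromal and 138 UPM in endothelial cells, a ratio of 1.27 (1.04 to 1.55), depend on which libraries are pooled: the ratio was 0.948 (0.779 to 1.16) without the caput library, 0.691 (0.561 to 0.857) without the corpus, 1.21 (0.994 to 1.49) without the cauda and 8.56 (4.88 to 16.6) without the vas deferens. Sox10 and Cdh19 summed to 15.4 UPM (7 UMIs) in vas deferens endothelial cells and had 0 UMIs in endothelial cells of the other 3 libraries. A UMI of either was found in 5 of the 144 cells, and without those Fxyd6 was at 217 UPM, with 94 UMIs in 27 of 139 cells.

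The paper, from these same data, already lists Fxyd6 beside Prox1 in a lymphatic signature of endothelial cells. Endothelial cells with a UMI of a lymphatic marker (Prox1, Lyve1, Flt4, Mmrn1 or Ccl21a) held more Fxyd6 than the others. The 34 cells with such a UMI had 390 UPM and the 211 without had 90.8 UPM, a ratio of 4.30 (2.91 to 6.31). A Fxyd6 UMI was found in 38.2% (22.2 to 56.4) of the former and 10.4% (6.65 to 15.4) of the latter, with median depths of 3391.5 and 2514 UMIs. The vas deferens supplied 28 of the 34, and within that library alone the levels were 467 and 158 UPM, a ratio of 2.96 (1.96 to 4.44). With Prox1, a transcription factor that specifies lymphatic endothelium, as the only marker, 11 cells stood against 234 and the ratio was 2.18 (1.22 to 3.67). Within the vas deferens that ratio was 1.61 (0.894 to 2.72), an interval that includes 1. A Fxyd6 UMI was found there in 60% (26.2 to 87.8) of 10 cells with Prox1 and 16.4% (10.6 to 23.8) of 134 without. These shares were not thinned, and the cells with Prox1 were deeper, with a median of 4839 UMIs against 2496. Epithelial cells had next to no Fxyd6: 10 UMIs in 3956 principal, 7 in 348 clear and 19 in 1412 basal cells.

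Atp1b1 in clear cells was at 489, 628, 656 and 621 UPM along the tract. Clear cells led in each epididymal library, while in the vas deferens basal cells stood beside them at 628 UPM, and in the corpus principal cells came next at 367 UPM. Only the caput stood below the corpus and cauda beyond counting error, the corpus being 1.28-fold (1.04 to 1.59) above it. ClearKrt14 cells had 1535 UPM, from 67 UMIs at a median depth of 698.5 UMIs per cell. That was 2.58-fold (1.97 to 3.32) above the 595 UPM of the main clear cells, whose median depth was 5327.5. The cells named Narrow had 549 UPM, within counting error of the main clear cells.

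In principal cells Atp1b1 was a corpus gene. Corpus principal cells had 367 UPM (336 to 400.1), against 71.9 UPM in the caput, 57.5 in cauda and 64.7 in vas deferens cells, and these 3 regions lay within counting error of each other. The corpus was 5.10-fold (4.19 to 6.26) above the caput, and 30.6% (25.8 to 35.8) of its thinned principal cells held a UMI, against 3.93% to 6.21% in the others. The high cells were those of populations 6 and 7, at 514 and 362 UPM, followed by populations 4 (235) and 5 (155), which span the caput and corpus. The remaining 11 populations ranged from 30.5 to 86.4 UPM.

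In basal cells the vas deferens was the high region for Atp1b1. The levels were 273, 233, 182 and 628 UPM, the last 2.30-fold (2.04 to 2.60) above the caput. This held in each of the 3 larger basal populations, with 646 UPM against 171 to 260 in main basal cells, 457 against 227 to 255 in Notch2 basal cells and 956 against 232 to 432 in low-UMI basal cells. Without cells called as doublets the vas deferens level in all basal cells was 625 UPM.

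**Figure D3:**
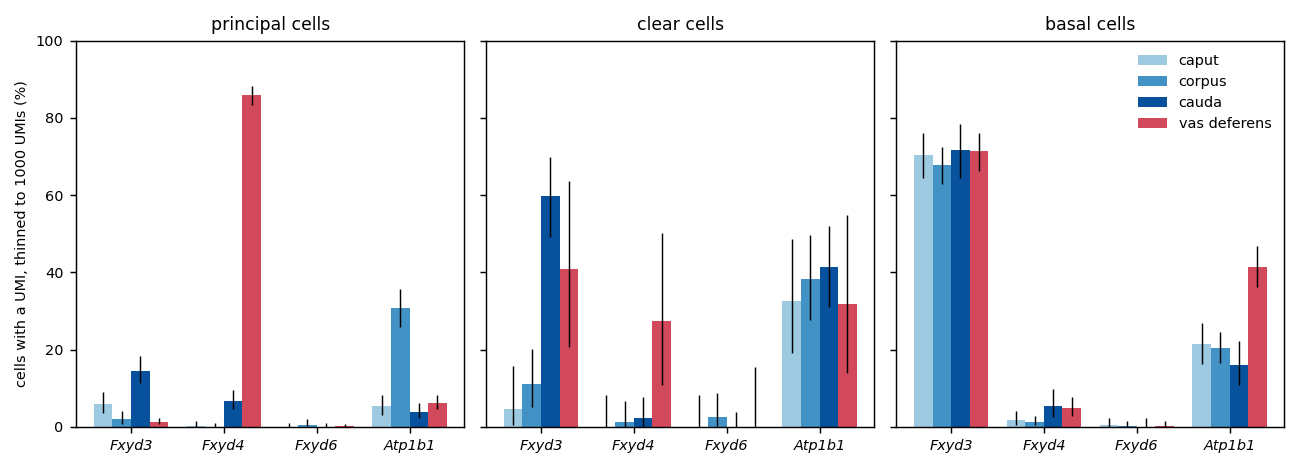
Share of principal, clear and basal cells with at least 1 UMI of each gene after thinning to 1000 UMIs per cell, by library. Bars are shares and lines exact binomial 95% intervals. Fxyd4 is found in 86.0% of vas deferens principal cells, Fxyd3 in 67.8% to 71.8% of basal cells in every region, and Atp1b1 in 30.6% of corpus principal cells.

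A gene was counted as restricted when its highest group had 20 or more UMIs and a level 4 or more times that of any other, with other groups raised to a floor of 3 UMIs. By that rule 603 of 9122 genes (6.61%) were restricted to 1 library in principal cells. Of the 3 members with enough UMIs, 2 met it, Fxyd4 in the vas deferens (1.57% of genes were restricted there) and Atp1b1 in the corpus (1.46%), while Fxyd3 was 2.75-fold (2.14 to 3.57) higher in the cauda than in the caput, its next library, and Fxyd6 did not reach 20 UMIs. Of 13 other listed genes of sodium transport with enough UMIs, 1 met it: Slc4a4, a sodium bicarbonate cotransporter, at 33.7 UPM in caput principal cells and 0 to 2.35 UPM in the others. Across the 7 broad types, 1339 of 11352 genes (11.8%) met the same rule. Of the 4 members 1 did, Fxyd4 in principal cells (2.21% of genes were restricted to them), at 23.1-fold (18.9 to 28.6) the clear cell level. That ratio was 44.6 with the 2 clear cells richest in Fxyd4 left out, 14.1 when levels were averaged over cells and 3.98 without the vas deferens library. Of 21 other listed genes 4 did: Scnn1a, the alpha subunit of the epithelial sodium channel, in clear cells (166 UPM), Slc8a1, a sodium calcium exchanger, in muscle (426 UPM), Slc4a4 in stromal cells (34.1 UPM) and Atp4a, a hydrogen-potassium ATPase alpha subunit, in principal cells (31.4 UPM). The median ratio of the highest to the next broad type was 2.33 over the 4 members and 2.36 over those 21 genes. There only counts of 0 were raised to the floor. Over all genes the median was 1.39, with every count below 3 UMIs raised to it, so that value is not a like measure. The partners of Scnn1a in the channel, Scnn1b and Scnn1g, had 26 and 13 UMIs in all cells.

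Set side by side, the mixture of beta subunit and FXYD transcripts differed between groups of cell types, and some types shared the same leading genes. Catalytic subunits were not part of these shares. Atp1b1 was the main beta subunit of the epithelium, with 71.5% of beta subunit UMIs in principal, 91.3% in clear and 79.5% in basal cells, and Atp1b3 was the main one elsewhere, with 75.4% in stromal, 82.9% in muscle, 85.6% in endothelial and 75.6% in immune cells. Among FXYD genes, Fxyd4 had 96.6% of the UMIs in principal cells, Fxyd3 97.2% in basal and 86.7% in clear cells, and Fxyd1, phospholemman, 94.5% in muscle. Stromal cells divided theirs between Fxyd1 (53.6%) and Fxyd6 (30.4%), and Fxyd5, also called dysadherin, led in immune (76.6%) and endothelial cells (51.3%). Fxyd2 and Fxyd7 had 44 and 42 UMIs in all cells.

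By region the principal cell mixture differed. Fxyd3 made up 91.5% (86 of 94), 59.7% (40 of 67), 59.0% (239 of 405) and 0.297% (42 of 14131) of the FXYD UMIs in principal cells along the tract, and Fxyd4 2.13%, 2.99%, 39.3% and 99.4%. The share of Atp1b1 in the beta subunit UMIs of these cells was 66.0%, 86.4%, 53.5% (46.1 to 60.8) and 62.1%. Caput and corpus principal cells thus had few FXYD transcripts of any kind. Of the 86 caput Fxyd3 UMIs, 51 lay in principal cells with no UMI of Krt5, Krt14 or Trp63. The part of basal cell RNA in the Fxyd3 shares was not tested. In stromal cells Fxyd6 made up 40.3%, 46.3% and 41.8% of FXYD UMIs in the caput, corpus and cauda and 4.49% in the vas deferens, where Fxyd5 made up 23.1%.

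**Figure D4:**
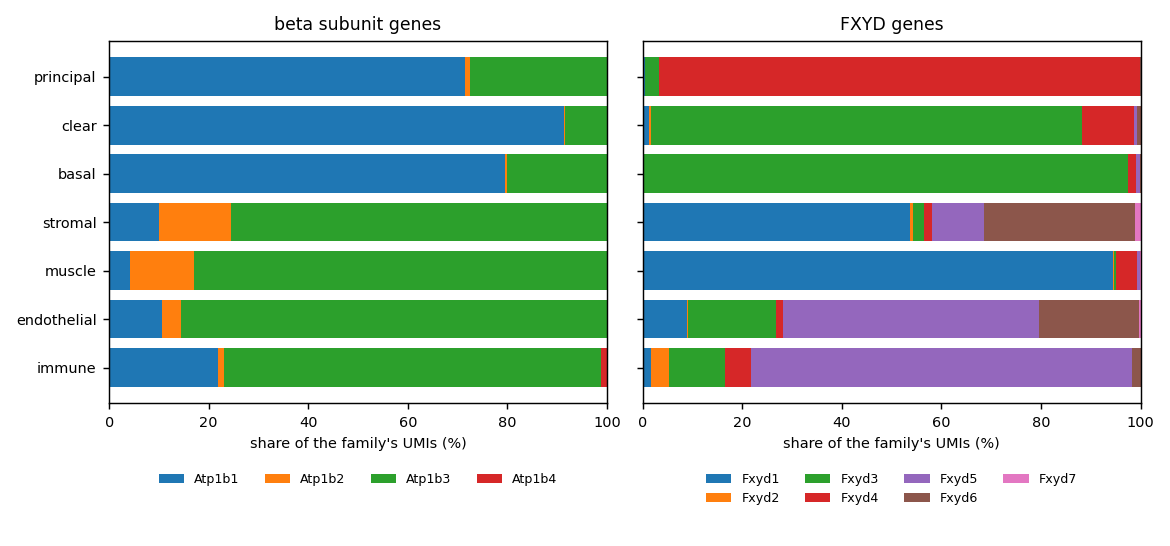
Share of the UMIs of the beta subunit and FXYD gene families (%) taken by its members in the 7 broad cell types, all libraries pooled. Each bar adds to all UMIs of the family in that cell type. Atp1b1 leads in epithelial and Atp1b3 in other cells, and the leading FXYD gene changes from Fxyd4 in principal to Fxyd3 in clear and basal, Fxyd1 in stromal and muscle and Fxyd5 in endothelial and immune cells.

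Genes outside the lists whose level followed each member over the 34 populations were ranked by Pearson r of log2(UPM + 10) among 11614 genes with 20 or more UMIs in a population. The populations share libraries and depth, so r describes likeness only. For Fxyd3 the closest were Perp (r = 0.85), a desmosome-associated protein, Mia, Pkp3, a plakophilin, Defb1, a defensin, and Fermt1. Closest to Fxyd4 were Bmp3 (0.95), Anxa13, Gsta2, Crygc and Elf5, of which Crygc reached 3584 UPM in principal population 15. Fxyd6 was followed by Igf2 (0.93), the insulin-like growth factor, Fbln5, an elastic fibre protein, Synpr, Tmem204 and Adamts5. Atp1b1 was followed by Cxadr (0.90), a tight junction receptor, Kcnk1, a potassium channel, Tmc4, Acpp and Galnt18. Between members, Fxyd3 and Atp1b1 had r = 0.69, and Fxyd4 had -0.18 with Fxyd3 and -0.07 with Atp1b1.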

How the data were processed

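Each library was 1 pool of dissociated cells run on a 10X Chromium 3′ kit. Per the labels and the methods of the study, the authors aligned reads to mm10 with HISAT2 2.0.4, counted UMIs at 3′ gene ends with ESAT, kept barcodes of intermediate depth and removed ambient RNA with a modified SoupX. The deposited counts are whole UMI counts per gene and cell after that step and sum to 3.54% fewer UMIs than the deposited cell table. That step could lower a gene abundant in free RNA. The deposited size factors, a score from scran, entered 1 alternative only.

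Counts were summed over the cells of each deposited population, broad type and library with Python 3.11.15, pandas 2.3.3 and scipy 1.17.1 and divided by the summed totals (UPM). Levels have exact Poisson intervals, ratios conditional binomial ones, and shares of cells those of Clopper and Pearson, each at 95%. A ratio against 0 UMIs used a floor of 3 UMIs. Cells were thinned to 1000 UMIs with a fixed seed, and 2062 shallower principal cells were left out. Doublets were called from simulated doublets (178 cells, 2.00%) and kept. The number called was set beforehand from an assumed rate. The cut caught 39.4% of simulated doublets in the caput to 65.9% in the vas deferens, so leaving out called cells removes only a part. The rule for restricted genes was also run on counts simulated from 1 shared profile, with some genes raised by known folds and counting error only. That run cannot show how often the rule errs in these libraries. The text names the 4 members, listed genes that met a rule of size or shared a subunit family, and 5 genes per member by pattern. Principal populations carry numbers from caput to vas deferens, matched by cell numbers, in place of the deposited names. Some listed genes and markers are not reported here. Members and lists were chosen with earlier results of these data known. Alternatives covered depth, doublets, averaging, thinning, thresholds and left-out libraries.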

Additional observations from a re-analysis of the deposited data

Results flagged for a closer look

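With 1 library per region the following differences were not tested. The vas deferens differed from each epididymal library in opposite directions in 2 cell types for 2 of the 4 genes. Fxyd6 was lower in vas deferens stromal cells than in each epididymal library, with ratios from 0.0724 to 0.135, and higher in vas deferens endothelial cells, with ratios from 3.38 to 16.0. Fxyd3 was lower in vas deferens principal cells, with ratios from 0.0653 to 0.318, and higher in vas deferens basal cells, with ratios from 1.14 to 1.33.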

How the results depend on the processing

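No paired analysis was possible because each region is 1 pooled library and no test was made. Over 19 results and 92 alternatives, 54 values stayed the same, 36 moved and 2 reversed. For ratios and shares of cells, the same meant inside the counting interval of the main value. For counts of genes it meant within a fixed fold of the main count, with no counting interval. The cause of the moves was not tested. Of the 92, 4 that choose clear or endothelial cells by marker or Fxyd4 UMIs were added after seeing the data. The order of stromal and endothelial Fxyd6 (1.27) reversed without the caput (0.948, an interval of 0.779 to 1.16 that includes 1) or corpus library (0.691, 0.561 to 0.857), and was 1.21 (0.994 to 1.49) without the cauda and 8.56 without the vas deferens. Basal to clear Fxyd3 (2.74) was 2.29 without the caput, 2.18 without the corpus and 5.38 without the cauda library, 3.51 with deposited size factors and 2.97 without clear cells holding basal marker UMIs. Principal to clear Fxyd4 (23.1) was 18.6 without the corpus and 3.98 without the vas deferens library, 14.1 as a mean over cells, 16.0 with size factors and 44.6 without 2 clear cells. Clear to basal Atp1b1 (1.91) was 1.60, 1.69 and 2.61 without the corpus, cauda and vas deferens libraries and 1.48 with size factors. In principal cells, vas deferens to cauda Fxyd3 (0.0653) was 0.123 as a mean over cells and 0.0932 with size factors, Fxyd4 (32.8) was 23.7 with size factors, and vas deferens to corpus Atp1b1 (0.176) was 0.133 and 0.122. The highest shares of principal cells with a UMI, thinned to 500 UMIs, were 8.85% for Fxyd3, 63.8% for Fxyd4 and 18.1% for Atp1b1; asking for 2 UMIs gave 3.23%, 72.1% and 7.51%, and 0% for Fxyd6, and no thinning 69.3% for Fxyd4. Of 5 similar genes, Fxyd4 shared 3 by Spearman correlation, and Fxyd6 0 by Spearman correlation, 2 with a pseudocount of 1 and 3 with 100 UMIs or more. At 2-fold the sodium transport list had 7 genes restricted by library and 10 by broad type, and at 8-fold 2 by broad type. With Prox1 alone the lymphatic ratio of Fxyd6 (4.30) was 2.18. Few cells limit the levels in the 12 cauda endothelial cells.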

Other observations

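Some low values outside the comparisons may be of use. Fxyd2, the gamma subunit gene next to Fxyd6, had 19 of its 44 UMIs in Connective cells (4.95 UPM) and 8 in the 104 cells named Macrophages, the latter at its highest level, 26.1 UPM (11.3 to 51.4). Atp1a4, the catalytic subunit known from sperm, had 33 UMIs in all cells, 25 of them in vas deferens principal cells (5.34 UPM), and the 4 vas deferens principal populations were at 4.62 to 6.44 UPM.

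In thinned vas deferens principal cells, Atp1b1 was found in 45 of 665 cells with a Fxyd4 UMI (6.77%, 4.98 to 8.95) and in 3 of 108 without (2.78%, 0.577 to 7.90). In thinned basal cells, Atp1b1 was found in 28.4% of 809 cells with a Fxyd3 UMI and 20.8% of 346 without. Cells are not replicates, and these shares carry no test.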
